A study of Mus musculus with 6 samples.

Results

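The genes described here are the mouse sensors of double-stranded RNA and the proteins that relay or answer their signal. They were picked by symbol, with earlier results of these data known. The symbols were Ddx58, Ifih1, Dhx58, Tlr3, Zbp1, Eif2ak2, Adar, Mavs, Tbk1 and Ikbke. All 10 were found among the 22442 gene identifiers of the table, and all 10 passed the filter on low values. Expression was measured by poly(A) RNA sequencing in mTECs, mouse renal tubular epithelial cells, in 6 libraries. The 3 LPS libraries came from cells transfected with a negative control, and the 3 LPSKD libraries came from cells transfected with RNA directed at Stat3. Every library came from cells that were transfected and then given lipopolysaccharide, a bacterial cell wall component, at 20 μg/ml for 24 h. No library without transfection or without lipopolysaccharide was analysed here, so the response of these genes to either step was not measured and only the difference between the 2 transfections was. The sources differ on the material. By the labels the cells were sorted with magnets and received siRNA, and by the study's methods they were an immortalised line that received shRNA.

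Double-stranded RNA is a sign of viral replication and can also come from transfected RNA. In the cytosol it is bound by the RIG-I-like receptors, which signal through MAVS on the mitochondrial surface, and in endosomes by TLR3, which signals through TICAM1. Both routes lead to the kinases TBK1 and IKKε, which phosphorylate interferon regulatory factors and so start interferon production. Several of the sensors are themselves interferon-stimulated genes, and tubular epithelial cells of the kidney are known to express TLR3.

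Stat3, the gene targeted in the LPSKD group (chr11, ENSMUSG00000004040), was measured at 34.6, 31.4 and 35.2 FPKM in the LPS libraries and at 30.8, 35.2 and 34.3 FPKM in the LPSKD libraries. FPKM is fragments per kilobase, scaled to the library total. For most genes the length that fitted the values was that of the coding bases, and comparisons between genes rest on it. The 2 groups overlapped, with means of 33.7 ± 2.02 and 33.4 ± 2.35 FPKM (SD, n = 3 each) and a limma log2 difference of −0.01 (SE 0.07, adjusted p = 0.944). Stat3 mRNA therefore did not separate the groups, and LPSKD below means the libraries labelled so. For mTECs the study reports knockdown of Stat3 by real-time PCR and western blot, without stating whether the sequenced cells were those measured. Library totals lay between 24084817 and 25422144 fragments, recovered from the table. Of 15 tubule epithelium markers, 10 were tested, and 5 of these passed the limma test, against 3.23% of all tested genes. Krt18 fell by 9.79%, whereas Aqp1 (92.6%), Pax2 (52.2%), Pax8 (31.3%) and Cdh16 (20.3%) were higher in LPSKD by the percentages given. Slc34a1, Umod and Aqp2 were at 0 in all 6 libraries. Summed tubule marker levels, which come mostly from the keratins Krt8, Krt18 and Krt19, were 3820 to 3893 FPKM in LPS and 3808 to 3860 FPKM in LPSKD. Of the 10 leukocyte markers, summing to 58.3 to 65.0 FPKM in LPS and 61.6 to 74.9 FPKM in LPSKD, 5 were tested and 1, Csf1r, rose, by 0.45 on the log2 scale (limma adjusted p = 0.0208). Csf1r, a large part of that sum, averaged 24.4 FPKM in LPS and 33.3 FPKM in LPSKD. The other 4 tested leukocyte markers had a negative difference and did not pass. None of the 7 fibroblast markers, all tested, and none of the 2 tested of 5 endothelial markers passed the test. The part of cell composition in the results below was not tested, and in bulk libraries fewer cells of a type and less RNA per cell cannot be told apart.

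Most of the receptors and effectors were lower in LPSKD, whereas the adaptor Mavs and the kinase genes Tbk1 and Ikbke did not pass the test. The receptor genes Dhx58 and Zbp1 did not pass it either. Ddx58, Ifih1, Eif2ak2, Adar and Tlr3 fell, which is 5 of the 10 genes (50%), against 1.66% of the 11723 tested genes that fell and 3.23% that passed the limma test in either direction. None of the 10 rose, against 1.57% of the tested genes. The 2 groups of libraries did not overlap for 7 genes, against 23.8% of all tested genes, and those 7 were all lower in LPSKD, as were 13.2% of all tested genes. The median log2 difference was −0.41 over the 10 genes and −0.01 over all tested genes. Each log2 difference is LPSKD minus LPS on log2(FPKM + 0.1), which understates the difference of genes at low levels. The labels do not state that replicates were separate cultures, so p-values measure only the spread between these libraries.

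**Figure D1:**
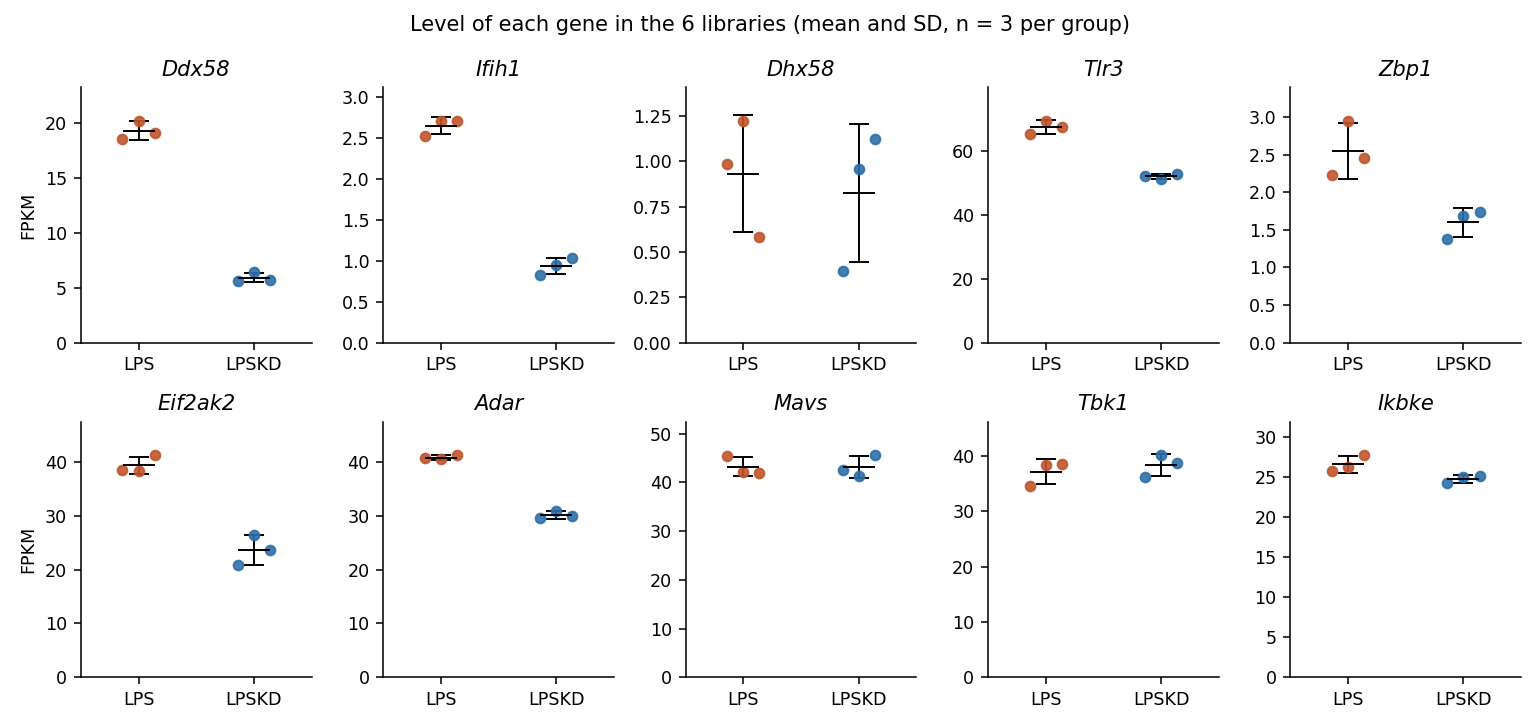
FPKM of each of the 10 genes in the 3 LPS and the 3 LPSKD libraries, 1 panel per gene, with each y axis starting at 0. Points are libraries and bars are means with the SD. The groups are separate for Ddx58, Ifih1, Tlr3, Zbp1, Eif2ak2, Adar and Ikbke, and overlap for Dhx58, Mavs and Tbk1.

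Ddx58 encodes RIG-I, the helicase that binds short double-stranded RNA with a triphosphate end. The gene (ENSMUSG00000040296) lies on the minus strand at chr4:40203773-40239828 in GRCm38. It was measured at 18.6, 20.2 and 19.1 FPKM in LPS and at 5.61, 6.41 and 5.75 FPKM in LPSKD. Every LPSKD library was far below every LPS library, and the replicates within each group lay close together. The means were 19.3 ± 0.860 and 5.92 ± 0.430 FPKM (SD, n = 3 each), so that the level fell by 69.3%. The log2 difference was −1.69 (SE 0.08, 95% interval −1.88 to −1.50, limma adjusted p = 2.44e-05). Among all tested genes, 29 had a more negative difference. The values rested on 389 to 1400 fragments per library.

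Ifih1 encodes MDA5, the related helicase that forms filaments on long double-stranded RNA. It (ENSMUSG00000026896) lies on the minus strand at chr2:62595798-62646255. Its levels were 2.53, 2.72 and 2.72 FPKM in LPS and 0.833, 0.945 and 1.04 FPKM in LPSKD. The groups were well apart, at a level several times below that of Ddx58. The means were 2.66 ± 0.105 and 0.938 ± 0.102 FPKM (SD, n = 3 each), so that the level fell by 64.7%. Its log2 difference was −1.41 (SE 0.19, 95% interval −1.85 to −0.97, limma adjusted p = 0.00642). It was −0.92 with a pseudocount of 1, since the gene is low, with 64 to 208 fragments per library. Without LPS replicate 3 the adjusted p was 0.0450, the highest of any alternative.

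Dhx58 encodes LGP2, the receptor of this family that lacks the signalling domains and modulates the other two. It (ENSMUSG00000017830, chr11:100694884-100704271, minus strand) was measured at 0.988, 1.22 and 0.584 FPKM in LPS and at 0.394, 0.959 and 1.12 FPKM in LPSKD. The groups overlapped widely, and each held a library well below its other libraries. The log2 difference was −0.21 (SE 0.43, adjusted p = 0.857 by limma). The 95% interval of −1.19 to 0.78 spans lower and higher levels but not the difference seen in Ddx58, and each library held only 20 to 62 fragments of this gene. Without LPSKD replicate 1 the difference was 0.19. Dhx58os on the opposite strand overlaps 6.93% of the coding bases of Dhx58. Whether fragments were assigned by strand is not given in the sources used here.

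The summed FPKM of these 3 receptors was 22.1, 24.2 and 22.4 in LPS and 6.83, 8.32 and 7.91 in LPSKD, with no overlap. Ddx58 made up 83.7% to 85.3% of that sum in LPS and 72.7% to 82.0% in LPSKD. Dhx58 made up 2.60% to 5.06% in LPS and 5.76% to 14.2% in LPSKD. Ddx58 thus remained the most abundant of the family in every library. The ratio of Ddx58 to Ifih1 was 7.27 ± 0.208 in LPS and 6.35 ± 0.698 in LPSKD (SD, n = 3 each). Its groups did not overlap, and the exact permutation p of 0.1 is the smallest that 3 against 3 libraries allow. Of the 12 ratios tested in this way, including those below, none could reach 0.05, and the adjusted p was 0.109 for each ratio whose exact p was 0.1.

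Tlr3 encodes the endosomal receptor for double-stranded RNA. It (ENSMUSG00000031639, chr8:45395665-45411080, minus strand) was the most abundant of the 10 genes in both groups. Its levels were 65.4, 69.5 and 67.7 FPKM in LPS and 52.3, 51.2 and 52.7 FPKM in LPSKD. All LPSKD libraries were lower. The fall was smaller in proportion than that of Ddx58, but it was large beside the replicate spread. The means were 67.5 ± 2.09 and 52.1 ± 0.736 FPKM (SD, n = 3 each), so that the level fell by 22.9%. On the log2 scale the difference was −0.37 (SE 0.04, 95% interval −0.47 to −0.28, limma adjusted p = 0.00245). The ratio of Tlr3 to Ddx58 was 3.50 ± 0.0560 in LPS and 8.82 ± 0.725 in LPSKD (SD, n = 3 each, exact permutation p = 0.1), without overlap. Ticam1, the adaptor of TLR3, averaged 5.80 FPKM in LPS and 6.54 FPKM in LPSKD (limma adjusted p = 0.655).

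Zbp1 encodes a sensor of left-handed (Z-form) nucleic acid that can start necroptosis, an inflammatory form of cell death. It (ENSMUSG00000027514, chr2:173206612-173218923, minus strand) was measured at 2.23, 2.95 and 2.45 FPKM in LPS and at 1.38, 1.68 and 1.74 FPKM in LPSKD. The groups did not overlap, but the gene did not pass the test over all genes. Its log2 difference was −0.63 (SE 0.19, 95% interval −1.07 to −0.20, limma unadjusted p = 0.00976, adjusted p = 0.135). The values came from 46 to 98 fragments per library. The adjusted p lay between 0.104 and 0.323 over the 16 alternatives. Of the genes that act with ZBP1 in cell death, Mlkl, which forms the membrane pore, averaged 5.86 and 4.57 FPKM (log2 difference −0.35, limma adjusted p = 0.164). Ripk3, the kinase that activates MLKL, had 4, 7 and 13 fragments in LPS and 4, 3 and 11 in LPSKD.

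Eif2ak2 encodes PKR, a kinase that is activated by double-stranded RNA and stops translation by phosphorylating eIF2α. It (ENSMUSG00000024079, chr17:78852564-78882573, minus strand) was measured at 38.6, 38.3 and 41.3 FPKM in LPS and at 20.9, 26.5 and 23.7 FPKM in LPSKD. The LPSKD libraries were all lower and more spread. The means were 39.4 ± 1.64 and 23.7 ± 2.83 FPKM (SD, n = 3 each), so that the level fell by 39.8%. On the log2 scale the difference was −0.74 (SE 0.09, 95% interval −0.93 to −0.54, limma adjusted p = 0.00302). Prkra, which encodes a protein activator of PKR, averaged 21.4 and 18.8 FPKM (log2 difference −0.20, limma adjusted p = 0.377).

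Adar encodes ADAR1, which edits adenosine to inosine in double-stranded RNA and so keeps cellular RNA from being sensed. It (ENSMUSG00000027951, chr3:89715022-89753446, plus strand) was measured at 40.6, 40.5 and 41.2 FPKM in LPS and at 29.5, 30.9 and 29.9 FPKM in LPSKD. Replicates were close in both groups and the groups were apart. The means were 40.8 ± 0.385 and 30.1 ± 0.701 FPKM (SD, n = 3 each), so that the level fell by 26.2%. The log2 difference was −0.44 (SE 0.05, 95% interval −0.54 to −0.33, limma adjusted p = 0.00157). A gene-level value does not separate the interferon-inducible long form of ADAR1 from its constitutive short form. Chrnb2 on the opposite strand overlaps 9.93% of the coding bases of Adar, but Chrnb2 itself held only 3 to 22 fragments per library. Adarb1, a related editing enzyme, averaged 4.06 and 3.82 FPKM (log2 difference −0.09, limma adjusted p = 0.803). The ratio of Adar to Ifih1 was 15.4 ± 0.592 in LPS and 32.3 ± 3.27 in LPSKD (SD, n = 3 each, exact permutation p = 0.1), without overlap.

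Mavs encodes the mitochondrial adaptor shared by RIG-I and MDA5. It (ENSMUSG00000037523, chr2:131234063-131248025, plus strand) was measured at 45.4, 42.1 and 42.0 FPKM in LPS and at 42.6, 41.3 and 45.6 FPKM in LPSKD. The groups overlapped and both means were 43.2 FPKM, with SDs of 1.97 and 2.18 (n = 3 each). The 95% interval of the difference ran from −8.48% to 9.19% (limma adjusted p = 0.997), which does not reach the size of the fall of Adar or Tlr3. Set against this adaptor, Ddx58 stood at 0.448 ± 0.0369 of the Mavs level in LPS and at 0.138 ± 0.0155 in LPSKD (SD, n = 3 each, exact permutation p = 0.1). The same ratio for Ifih1 was 0.0617 ± 0.00510 and 0.0217 ± 0.00188.

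Tbk1 encodes the kinase on which the MAVS and TICAM1 routes converge. It (ENSMUSG00000020115, chr10:121546455-121586787, minus strand) was measured at 34.5, 38.4 and 38.6 FPKM in LPS and at 36.2, 40.2 and 38.8 FPKM in LPSKD. The groups overlapped, with a log2 difference of 0.05 (SE 0.06, limma adjusted p = 0.764) and a 95% interval from −6.52% to 14.1%.

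Ikbke encodes IKKε, the related inducible kinase. It (ENSMUSG00000042349, chr1:131254343-131279606, minus strand) was measured at 25.8, 26.3 and 27.8 FPKM in LPS and at 24.3, 25.0 and 25.1 FPKM in LPSKD. The groups did not overlap, yet the gap was narrow and the gene did not pass the test. The log2 difference was −0.10 (SE 0.05, limma adjusted p = 0.370), with a 95% interval from −14.4% to 1.39%. The ratio of Tbk1 to Ikbke was 1.40 ± 0.0589 in LPS and 1.55 ± 0.0576 in LPSKD (SD, n = 3 each, exact permutation p = 0.1).

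**Figure D2:**
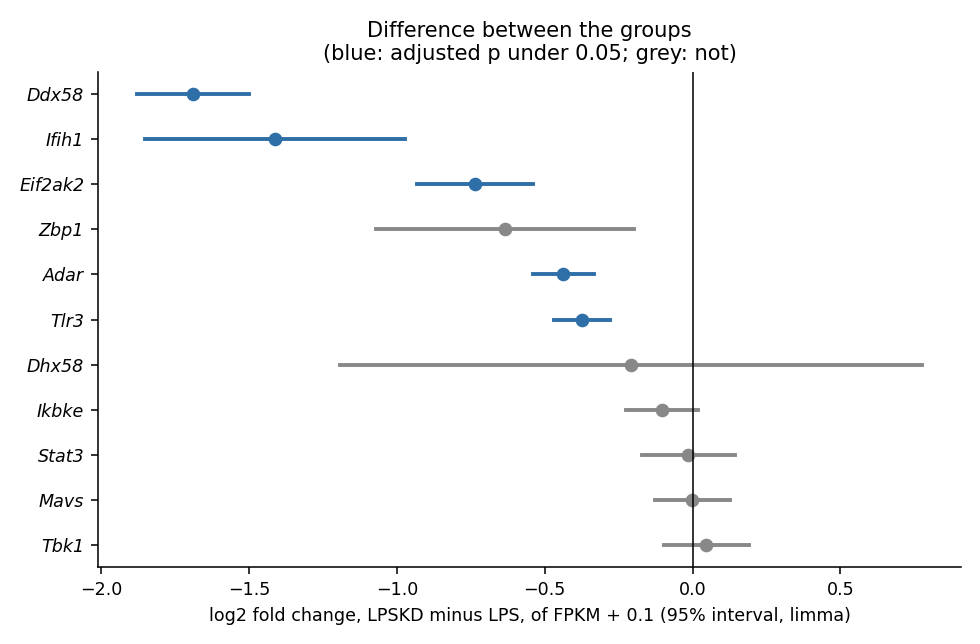
Log2 difference, LPSKD minus LPS, of each of the 10 genes and of Stat3, with its 95% interval from the limma fit. Ddx58 (−1.69) and Ifih1 (−1.41) lie farthest to the left, and the intervals of Mavs, Tbk1, Ikbke, Dhx58 and Stat3 include 0.

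In LPS the order of levels was Tlr3, Mavs, Adar, Eif2ak2, Tbk1, Ikbke, Ddx58, Ifih1, Zbp1 and Dhx58. Neighbouring ranges overlapped between Adar and Eif2ak2, between Eif2ak2 and Tbk1, and between Ifih1 and Zbp1. In LPSKD the order was Tlr3, Mavs, Tbk1, Adar, Ikbke, Eif2ak2, Ddx58, Zbp1, Ifih1 and Dhx58, with overlap between Ikbke and Eif2ak2 and between Ifih1 and Dhx58. Tlr3 and Mavs thus led in both groups and Dhx58 was last. The ratio of Adar to Eif2ak2, 1.04 ± 0.0328 in LPS, was 1.28 ± 0.126 in LPSKD (SD, n = 3 each, exact permutation p = 0.1).

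Promoter sequence was searched for the core of the interferon-stimulated response element, which reads GAAA, any 2 bases and GAAA, bound by interferon regulatory factors, and for the STAT dimer site, which reads TTC, any 3 bases and GAA, on both strands. RefSeq windows (GRCm38.p6) running from 250 bases before to 50 bases after the start were matched for 8 of the 10 genes, all but Dhx58 and Zbp1. A gene was counted if any of its windows held a match. In the 250 bases before the start, the response element core was found in 0 of the 8. It was found there in 3.46% of all 27025 genes with a window. Over the whole 300-base window, a choice made after seeing the data, it was found in Ddx58, Ifih1 and Eif2ak2. That is 3 of 8, against 3.99% of all genes with a window. Among the genes that fell in LPSKD and had a window, 36 of 160 (22.5%) held it there, against 3.66% of the tested genes. The core shortened by its last base, which every full core also contains, was found in Ddx58, Ifih1, Eif2ak2 and Adar. It was found in 9.76% of all genes with a window. In the 250 bases before the start it was found in 2 of the 8, Ifih1 and Adar, and in 8.18% of all genes with a window. The STAT site was found in the 300 bases of Eif2ak2 and Adar, and in 9.55% of all genes with a window. Of the falling genes with a window, 19 of 160 (11.9%) held the STAT site there, against 8.33% of the tested genes. In the 250 bases before the start the STAT site was found in 1 of the 8, Eif2ak2, and in 8.13% of all genes with a window. No window of Tlr3, Mavs, Tbk1 or Ikbke held any of these letters. A match describes the sequence and is not evidence of binding.

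The 30-base stretches around the full and shortened response element cores are shown for the 4 falling genes that had any, 5′ to 3′ along the gene's strand, with the match in capitals. In Ddx58 the core reads on the other strand at bases 3 to 12 after the start, and a core lacking an A of its first repeat (GAA, any 2 bases, GAAA) lies at positions −60 to −52, counted from the start. In Ifih1 the core lies at bases 33 to 42 after the start, and the core shortened by its last base reads on the other strand at positions −112 to −104. In Eif2ak2 the core lies at bases 19 to 28 after the start. Adar has the shortened core at positions −249 to −241 and again at bases 34 to 42 from the last of its 3 RefSeq starts. The windows of its starts 1 and 2 held no match to any searched letters. Each stretch has 1 match in capitals, and overlapping matches are not marked. The STAT sites lie at positions −178 to −170 in Eif2ak2, outside the stretches shown, and at bases 23 to 31 in Adar.
Ddx58, chr4:40239804-40239833, minus strand: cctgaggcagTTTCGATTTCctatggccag
Ddx58, chr4:40239866-40239895, minus strand: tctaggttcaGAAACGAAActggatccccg
Ifih1, chr2:62646206-62646235, minus strand: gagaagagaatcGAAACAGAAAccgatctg
Ifih1, chr2:62646348-62646377, minus strand: agaattcgcgTTCCCTTTCctgtttctcac
Eif2ak2, chr17:78882535-78882564, minus strand: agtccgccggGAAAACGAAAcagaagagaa
Adar, chr3:89730468-89730497, plus strand: gGAAAAGGAActtcctcacagggcggagag
Adar, chr3:89730738-89730767, plus strand: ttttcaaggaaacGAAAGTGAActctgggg
Of the genes that fell, Tlr3 alone had no match.

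**Figure D3:**
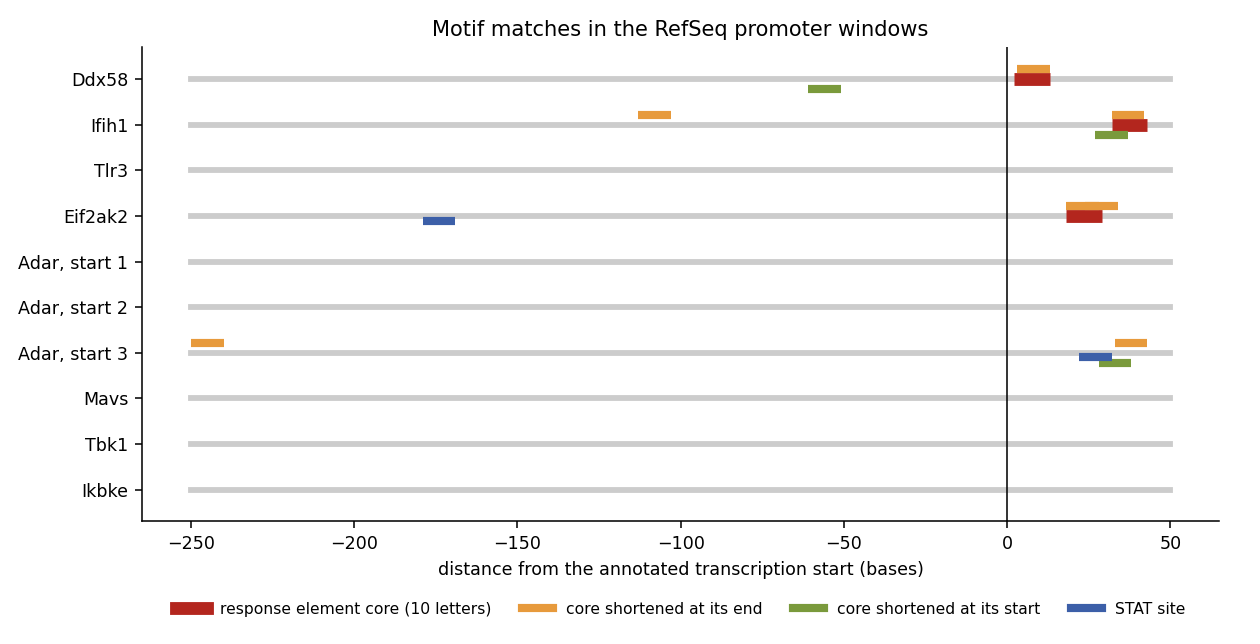
Positions of the searched letters, in bases from the start, in the RefSeq promoter windows of the 8 matched genes. Matches to the full response element core sit just after the start in Ddx58, Ifih1 and Eif2ak2, and the windows of Tlr3, Mavs, Tbk1 and Ikbke are empty.

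The other genes of the pathway were read from 9 lists, of which 69 of 84 genes were tested. In these lists 12 genes (17.4%) fell and 0 rose by limma, against 3.23% called among all tested genes, and the median log2 difference was −0.07. At an unadjusted p under 0.05, 2058 of all tested genes passed. Among 12 tested partners and regulators of the RIG-I-like receptors, 2 fell. Trim25, a ubiquitin ligase that activates RIG-I, went from 9.29 ± 0.801 to 4.88 ± 0.846 FPKM (SD, n = 3 each, log2 difference −0.93, limma adjusted p = 0.0112). Zc3hav1, the antiviral zinc finger protein ZAP, went from 46.0 ± 0.858 to 35.4 ± 1.93 FPKM (log2 difference −0.38, limma adjusted p = 0.00730). The Trim25 call was lost with ordinary, untrended variance moderation (adjusted p = 0.0586) and with the replicate number as a block (adjusted p = 0.0525). Rnf135, another ligase of RIG-I, averaged 8.85 and 7.29 FPKM (log2 difference −0.28, limma adjusted p = 0.235).

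Downstream of MAVS and TLR3, none of 13 tested adaptors passed the test and their median log2 difference was 0.06. Traf3, an adaptor that brings in TBK1, averaged 26.8 and 29.9 FPKM (log2 difference 0.16, limma adjusted p = 0.236). Irf3, the factor that TBK1 phosphorylates first, averaged 36.4 and 38.9 FPKM (log2 difference 0.10, limma adjusted p = 0.383). At the end of the route, of 9 tested genes of interferon output, 4 fell, against 1.66% of all tested genes. The list median was −2.55. Irf7, the inducible factor that amplifies interferon production, went from 9.59 to 1.64 FPKM (log2 difference −2.55, limma adjusted p = 0.00157). Ifit1, which binds foreign RNA ends, went from 16.8 to 1.37 FPKM (log2 difference −3.54, limma adjusted p = 1.08e-05). The ubiquitin-like Isg15 (−2.56) and the chemokine Cxcl10 (−2.78) were the others. Ifnb1, the gene of interferon β, had 2, 2 and 16 fragments in LPS and 0, 0 and 1 in LPSKD, so that most of its LPS fragments came from LPS replicate 3. It was below the filter and so not among the tested genes, and a limma fit without the filter gave an adjusted p of 0.277.

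The oligoadenylate synthetase and RNase L pathway degrades RNA once double-stranded RNA is bound. Of its 9 genes, 4 fell, against 1.66% of all tested genes. All 9 had a negative difference, as did 52.5% of all tested genes, and their median was −1.64. The 4 were Oas1a (−2.01, limma adjusted p = 0.00157), Oas1b (−3.09, adjusted p = 0.0447), Oas3 (−2.73, adjusted p = 0.00849) and Oasl2 (−1.66, adjusted p = 0.00605). Oas1b, Oas1c, Oas1g, Oas2, Oas3 and Oasl1 averaged below 0.5 FPKM in LPSKD. They thus passed the filter only through their LPS levels. Oas1b held 0 to 78 fragments per library and Oas3 held 6 to 119. Fragments of these close paralogs may be split between them, and without LPS replicate 3 only 2 of the 4, Oas1a and Oasl2, passed. The Oas1b call was lost in 8 of 16 alternatives. In the integrated stress response that PKR feeds, only 1 of 13 genes fell, against 1.66% of all tested genes. This was Ppp1r15a, which reverses eIF2α phosphorylation, from 162.4 ± 2.63 to 138.7 ± 0.625 FPKM (log2 difference −0.23, limma adjusted p = 0.00770), a call lost with untrended moderation (adjusted p = 0.0669). Among 5 tested genes of cytosolic DNA sensing, Ifi204, of the interferon-inducible IFI16 family, fell by 1.17 on the log2 scale (limma adjusted p = 0.00157). Of the endosomal list, the receptors Tlr7, Tlr8 and Tlr9 were below the filter and not tested, and none of the 4 tested genes (Unc93b1, Myd88, Irak1 and Irak4), which serve these receptors as a chaperone, an adaptor and kinases, passed by limma. Nor did any of 3 tested partners of ZBP1.

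**Figure D4:**
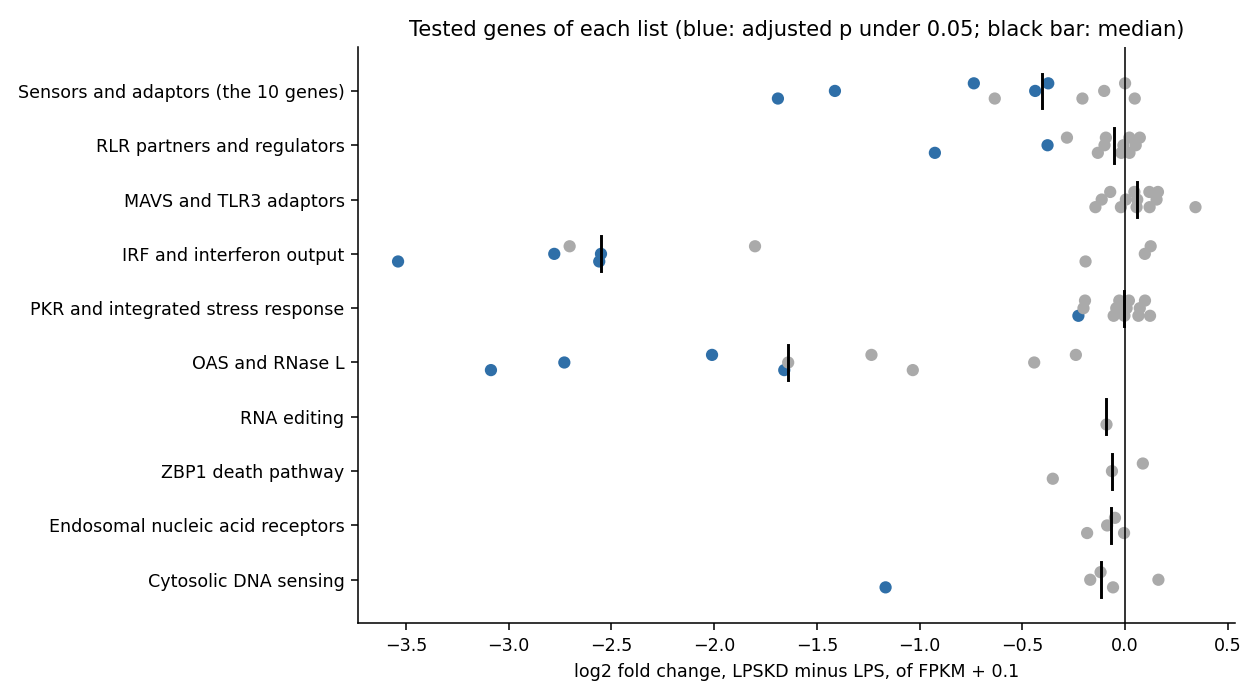
Log2 difference, LPSKD minus LPS, of the tested genes among the 10 genes and in each of the 9 pathway lists, with 1 point per gene, genes that passed the limma test in blue and the median as a black bar. The points of interferon output and of the OAS and RNase L pathway reach below −3, and those of the MAVS and TLR3 adaptors stay near 0.

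The genes whose levels ran most like those of the RIG-I-like receptors were sought by Pearson correlation of log2 levels over the 6 libraries. The 6 points form 2 groups and share their library totals, so a high value mostly restates a difference between the groups, and it is given as a description. Nearest to Ddx58 were Spp1 (r = 0.999), Parp14 (r = 0.999) and Myo7b (r = 0.998). Parp14 fell by 1.73 on the log2 scale (limma adjusted p = 5.31e-04), which is close to the −1.69 of Ddx58, whereas Spp1 fell by 0.34. Among the genes nearest to Ifih1 were Xdh (r = 0.997) and Krt18 (r = 0.997). Krt18, a tubule marker, fell by 0.15 on the log2 scale. Dhx58 had Lig1 (r = 0.990), Ubxn2b (r = 0.986) and Tpmt (r = 0.982) nearest to it, and none of these passed the test.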

How the data were processed

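The values deposited by the authors are FPKM per gene, 1 table for all 6 libraries. Per the labels, the submitters' processing notes name Bowtie 0.12.2, HISAT2 2.0 and StringTie 1.3.0, and list the builds mm8 and GRCh38.p13 without a role, although the identifiers are mouse Ensembl genes. Symbols, positions and coding lengths came from GENCODE M21 (GRCm38), which matched 22399 of 22442 identifiers. Where 2 identifiers shared a symbol (Ddit3), the higher was used. FPKM times coding length times a library total gave whole fragments (within 0.05) for 97.6% of the 16837 genes above 0. Differences were tested with limma 3.58.1 (R 4.3.3, trended eBayes) on log2(FPKM + 0.1) for 11723 genes of mean FPKM of at least 0.5, with Benjamini-Hochberg adjustment over all of them at 0.05. Single ratios had a two-sided exact permutation test.

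The genes and lists were chosen with earlier results of these data known. Genes named were Stat3, the 10 genes, list genes that passed, 10 preset pathway genes, and the 3 nearest by correlation (mean FPKM of at least 2) to each RIG-I-like receptor. A gene that this rule names is not reported here. In simulated data the fit called 34 of 67 genes changed by 0.5 on the log2 scale, 60 of 64 changed by 1, 65 of 66 changed by 2 and 7 of 11491 unchanged genes. The simulation gave every gene and library the same extra spread beyond counting error, which the real libraries need not have. Alternatives were pseudocounts of 1 and 0.01, other filters (mean FPKM of at least 1, of at least 0.1, none), quantile normalization, median centring, untrended moderation, a replicate block, voom on recovered fragments and each library left out.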

Additional observations from a re-analysis of the deposited data

How the results depend on the processing

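The 5 genes that fell (Ddx58, Ifih1, Tlr3, Eif2ak2 and Adar) passed under all 16 alternatives, 6 of which leave out a library, and their highest adjusted p by limma over these was 0.0450. The count of genes past the threshold, 379, was 140 without the variance trend, 213 with the replicate block and 534 with voom on recovered fragments. With a library left out it lay between 158 and 356, and was 158 without LPS replicate 3, 178 without LPSKD replicate 1, 192 without LPSKD replicate 2 and 168 without LPSKD replicate 3. Replicate numbers did not pair the samples (every correlation of same-numbered deviations below 0), and beside that count the replicate block took the Trim25 and Oas1b calls. Values near 0 changed sign. The log2 difference of Mavs was 0.00542 with median centring, 0.000206 with voom, and −0.0401 to 0.0369 with a library left out. Left-out libraries gave −0.00549 to 0.0882 for Tbk1, −0.479 to 0.193 for Dhx58 and −0.0641 to 0.0444 for Stat3. Dhx58 was not tested at a mean FPKM of at least 1. The count of genes with a response element core, 0 of 8 before the start, was 2 with the core shortened by its last base. In the whole window, searched after seeing the data, it was 3 with the full core, 4 with that shortened core and 3 with the core shortened in its first repeat. The calls on the 69 pathway genes, 12, lay between 9 and 14. Few fragments were counted for Dhx58, Zbp1, Ripk3 and Ifnb1, with at most 62, 98, 13 and 16 in a library. Counting error is only part of the spread between libraries. The causes of these shifts were not tested.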
